A study of Mus musculus with 12 samples.

Results

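Activated B cells that received KU55933, an inhibitor of the kinase ATM, before etoposide were compared with cells given LPS only, to measure which mRNA changes remained or appeared when DNA was damaged with ATM inhibited. The comparison used 8 of the 12 mRNAseq libraries of the series, which were all those labelled LPS (4 libraries) and LPS+KU55933+Etoposide (4 libraries). The 4 libraries labelled LPS+Etoposide gave the values beside them, and also entered the scaling and the errors of the comparison. The cells were primary B cells from the spleen of C57BL/6Babr mice, activated with LPS at 10 μg/ml. Cells labelled LPS had 48 h of LPS. Cells labelled LPS+Etoposide had 48 h of LPS and 4 h with etoposide at 20 μM. Cells labelled LPS+KU55933+Etoposide had 47 h of LPS, 1 h with KU55933 at 10 μM and 4 h with etoposide at 20 μM. It is not labelled whether the LPS group was collected before or after the 4 h of etoposide in the others, and cells with KU55933 but no etoposide were not analysed here. Effects of the inhibitor in undamaged cells, of the culture time and of the sequencing indexes, which no 2 groups share, therefore cannot be told apart from the response to damage.

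Etoposide traps topoisomerase II on DNA and leaves double-strand breaks. ATM is recruited to such breaks by the Mre11-Rad50-Nbs1 complex and phosphorylates p53, Mdm2 and the checkpoint kinase Chk2, so that p53 accumulates and switches on genes for cell cycle arrest, death and repair. KU55933 is a small molecule that inhibits the ATM kinase. The related kinases ATR and DNA-PKcs respond to damaged DNA as well and share substrates with ATM. LPS binds Toll-like receptor 4 and drives B cells into division and antibody secretion, with activation of NF-kB and interferon genes.

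The deposited table holds 1 fitted value per gene and group, scaled to each library, so that the 4 libraries of a group have the same normalized count once their size factors are divided out. Levels are therefore given as 1 normalized count per group. The error of a difference is the standard error (SE) deposited for that comparison. The size factors and this SE come from the libraries of every group, LPS+Etoposide included. The SE is therefore not the spread between the 4 replicates of the compared groups alone. The totals of fitted counts were 20739978 to 23935658 per library with LPS and 20400994 to 25052093 with LPS+KU55933+Etoposide. The median SE of a log2 difference was 0.14 over the tested genes, 0.30 below a mean of 100 counts and 0.099 from 1000 counts upwards. The B cell marker Ighm was abundant in both groups, with 342539.5 and 298438 counts of this heavy chain gene of IgM. Of the 7 B cell markers, all tested, 3 were lower with the inhibitor than in LPS, against 23.5% of all tested genes. Most of these markers are very abundant, and 47.4% of genes with a mean of at least 4350 counts in the 3 groups were lower. The 3 were Ms4a1 (CD20, 31139 to 13374 counts), Cd22 and Pax5, and the median log2 difference of the 7 was -0.45. The summed level of the 7 was 475229 in LPS and 381151 with the inhibitor.

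Against LPS, 7507 of 15171 tested genes differed in LPS+KU55933+Etoposide at an adjusted p of 0.01, which is 49.5% (two-sided Wald test, Benjamini-Hochberg adjustment). Of these, 3940 genes were higher (26.0% of those tested) and 3567 were lower (23.5%). With library totals as the scaling, which raised the median difference by 0.16 on the log2 scale, 5366 were higher and 2503 lower. Changes of at least 2-fold were found for 1673 of the higher and 912 of the lower genes, and the median size over the called genes was 0.75 on the log2 scale. With etoposide and no inhibitor, 51.9% of the tested genes differed from LPS, 27.0% higher and 24.9% lower. Between the groups with and without the inhibitor, 29.7% differed, 13.2% higher and 16.5% lower with KU55933. A lower count in these bulk samples can come from fewer cells of a type or from less RNA per cell, and the 2 cannot be told apart.

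Genes that p53 is known to induce stayed far above LPS with ATM inhibited. Over the 4 lists of p53 regulators and targets together, 37 of 46 tested genes were higher than in LPS and 6 were lower. Over all tested genes these shares were 26.0% and 23.5%. The median log2 difference was 1.47, against 0.02 over all tested genes. For the 42 genes with at least 10 counts in all 8 columns, 33 were higher and 6 lower, with a median of 1.31. The 46 genes had a median of 2.06 with etoposide alone, where 37 were higher and 5 lower. In the direct test of the difference, 28 of the 46 were lower with KU55933 than without it and 2 were higher, against 16.5% and 13.2% of all tested genes. The median log2 difference between the damaged groups was -0.50. Each group enters 2 of the 3 comparisons, so the values of the comparisons are set side by side and are not independent of each other.

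Cdkn1a, at chr17:29090976-29100727 (GRCm38), encodes the cyclin-dependent kinase inhibitor p21. Its level was 409 counts in LPS, 13511 in LPS+Etoposide and 10806 in LPS+KU55933+Etoposide. The difference from LPS was 4.72 ± 0.11 (log2 ± SE), a 26.4-fold rise, and the difference between the damaged groups was -0.32 (95% interval -0.53 to -0.12), which passed the threshold. Cdkn1a was the gene among the 37 p53-list genes with a matched RefSeq promoter window (250 bases before to 50 after a start site, GRCm38.p6) that held a pair of half-site cores CATG 6 bases apart, the spacing of a full p53 element. Of the 9944 tested genes with a window, 0.412% held this spacing on either strand. The stretch is shown because it lies beside one of the largest rises, at chr17:29090923-29090952, plus strand, with the cores and their spacer in capitals.
Cdkn1a: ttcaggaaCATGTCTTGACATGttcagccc

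The rises with the largest ratios among genes of at least 100 counts in both groups included 4 genes of the p53 lists, Phlda3, Cdkn1a, Plk2 and Tnfrsf10b. Phlda3, an inhibitor of Akt signalling, went from 107 to 3002 counts, against 3218 with etoposide alone. Its difference between the damaged groups was -0.10 (95% interval -0.31 to 0.11), which did not pass. Plk2, a polo-like kinase, rose from 261 to 6064 (9933 without the inhibitor). Tnfrsf10b, a death receptor for TRAIL, rose from 292 to 3205 (4784 without). The other genes of this kind, with log2 differences of 3.46 to 4.60, were Fam212b, Enc1, Prrg4, the receptor tyrosine kinase Epha2, the thiamine transporter Slc19a2 and the chemokine Cxcl10. Cxcl10 differed from the rest in being no higher with etoposide alone, as described among the chemokines.

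Of these 4 lists the death targets had the highest median, 2.18, with 14 of 15 tested genes higher and 1 lower. Over all tested genes 26.0% were higher and 23.5% lower. For the 13 death targets with at least 10 counts in all 8 columns, 12 were higher, 1 was lower and the median was 2.08. Bbc3 (Puma), a BH3-only protein that opens the mitochondrial route to death, had 490.0 counts in LPS, 2149 in LPS+Etoposide and 2747 with the inhibitor. Its difference between the damaged groups was 0.35 (95% interval -0.07 to 0.77), which did not pass. Pmaip1 (Noxa), another BH3-only gene, had 1175, 6813 and 6230.1 in the same order, and the damaged groups differed by -0.13 (95% interval -0.44 to 0.19), which did not pass either. Bax, the effector that forms the mitochondrial pore, rose from 2189 to 4855 (5680.1 without the inhibitor). The death receptor Fas kept a smaller part of its rise, with 330.5, 2580.1 and 1401 counts and a difference between the damaged groups of -0.88 (95% interval -1.02 to -0.74). Bid, which links death receptors to mitochondria, was the gene of this list that fell, from 2698 to 1317 (1119 without). Eda2r and Perp, a receptor of the TNF family and a desmosomal membrane protein, rose 14-fold and 10.4-fold, from 3.84 and 4.6 counts to 53.9 and 48. Both passed the filter through the damaged group alone. They kept less of the level they had with etoposide alone, 124 and 201 counts. Trp53inp1, Pidd1, Ei24, Aen, Apaf1 and Siva1 also rose, with log2 differences of 0.54 to 2.21, and each of these 6 was lower with the inhibitor than without it, by 0.62 to 0.87 on the log2 scale.

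**Figure D1:**
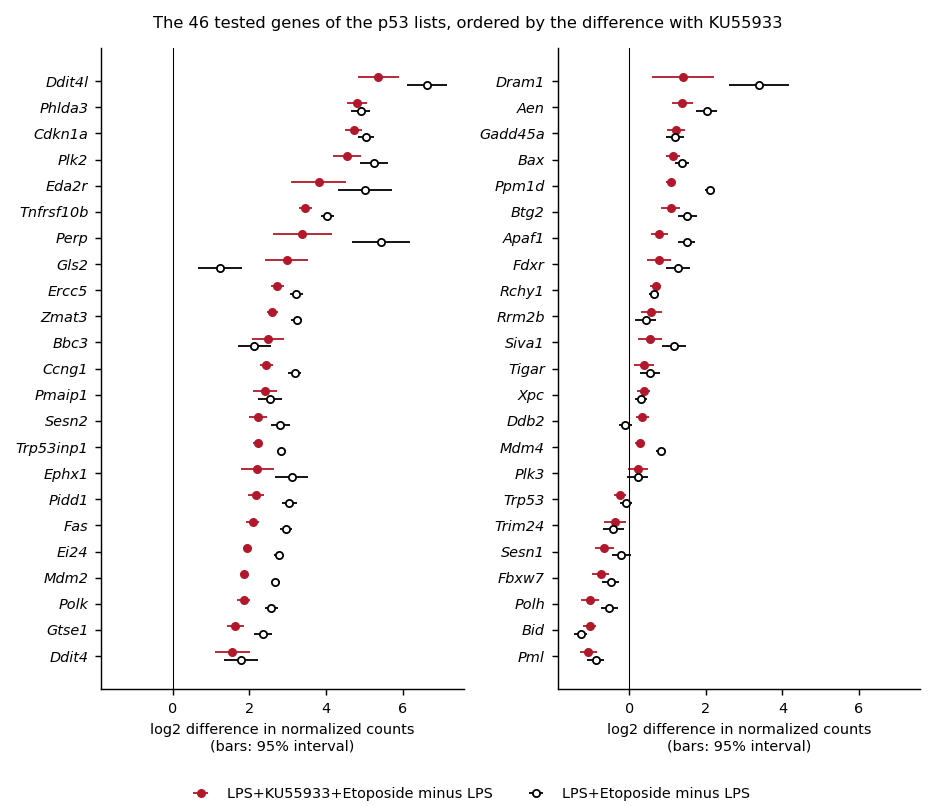
Log2 differences from LPS (horizontal axis, bars are 95% intervals) of the 46 tested genes of the 4 p53 lists, with KU55933 and etoposide (filled) and with etoposide alone (open). Most filled points lie right of 0 and left of the open point of the same gene, and Gls2 and Ddb2 are among those to its right.

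Genes that regulate p53 rose as well. Mdm2, the ubiquitin ligase that degrades p53, rose 3.65-fold, from 2609 to 9527 counts, and reached 16743 without the inhibitor. Ccng1 (cyclin G1) went from 5647 to 30636 (51295 without) and Ppm1d (Wip1), a phosphatase that reverses ATM signalling, from 865 to 1836 (3701 without). All 3 were lower with KU55933 than without it, with log2 differences of -0.81, -0.74 and -1.01. Mdm4, a partner of Mdm2, and the ubiquitin ligase gene Rchy1 rose by 0.28 and 0.69. The mRNA of p53, Trp53, had 5905 counts in LPS, 5562 in LPS+Etoposide and 4981 in LPS+KU55933+Etoposide. Its difference of -0.25 ± 0.08 passed the threshold, and was 0.06 after quantile normalization and -0.08 with library totals, where it did not pass. It was also lost with size factors from abundant genes.

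The arrest and the repair and metabolism lists had 6 of 9 and 12 of 15 tested genes higher, against 26.0% of all tested genes, with medians of 1.22 and 1.40. The second median was 0.78 over the 13 genes with at least 10 counts in all 8 columns, which leaves out genes that passed the filter through the damaged group alone, such as Ddit4l and Dram1. Zmat3, an RNA-binding p53 target, rose from 955 to 5779 counts (9040.4 without the inhibitor). Ercc5, the nuclease that cuts 3′ of lesions in nucleotide excision repair, rose from 663 to 4401 (6195 without). Gls2, the glutaminase of the mitochondria, had the largest further rise, with 24.7 counts in LPS, 58.2 with etoposide and 194 when ATM was also inhibited, a difference between the damaged groups of 1.74 (95% interval 1.22 to 2.25). Ddb2, a damage sensor of nucleotide excision repair, had 503, 469 and 639 counts, and was higher than LPS with the inhibitor. Btg2 and Gadd45a of the arrest list rose by 1.08 and 1.22, and Sesn2, Ephx1, Polk, Ddit4, Dram1, Fdxr, Rrm2b and Xpc of the other by 0.37 to 2.23. Dram1, an inducer of autophagy, differed most between the damaged groups, with 7.02, 73.2 and 18.5 counts. Genes of these lists that fell were Pml, which organises nuclear bodies, from 13984 to 6679.7, Sesn1, a sestrin, from 1710.4 to 1089.9, the bypass polymerase gene Polh, from 1403 to 686, and the ubiquitin ligase subunit Fbxw7, from 1111 to 661.

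Near-silent genes were also switched on with ATM inhibited. Of the tested genes, 14 had under 10 counts in LPS and at least 100 in LPS+KU55933+Etoposide. How many tested genes had under 10 counts in LPS was not counted, so no share is given. Tnfsf4 (Ox40 ligand), a costimulatory ligand for T cells, went from 8.93 to 541 counts (758 without the inhibitor), and Ddit4l, an inhibitor of mTOR signalling, from 8.33 to 344 (833 without). Celf5, Sec14l5 and 1700007K13Rik rose to 266, 173 and 200.4 from under 10. These last genes kept less of the level they reached with etoposide alone, which was 1118, 893 and 667 counts. Their log2 differences between the damaged groups were -2.07, -2.37 and -1.74, while that of Tnfsf4 was -0.49 (95% interval -0.86 to -0.12) and missed the threshold.

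**Figure D2:**
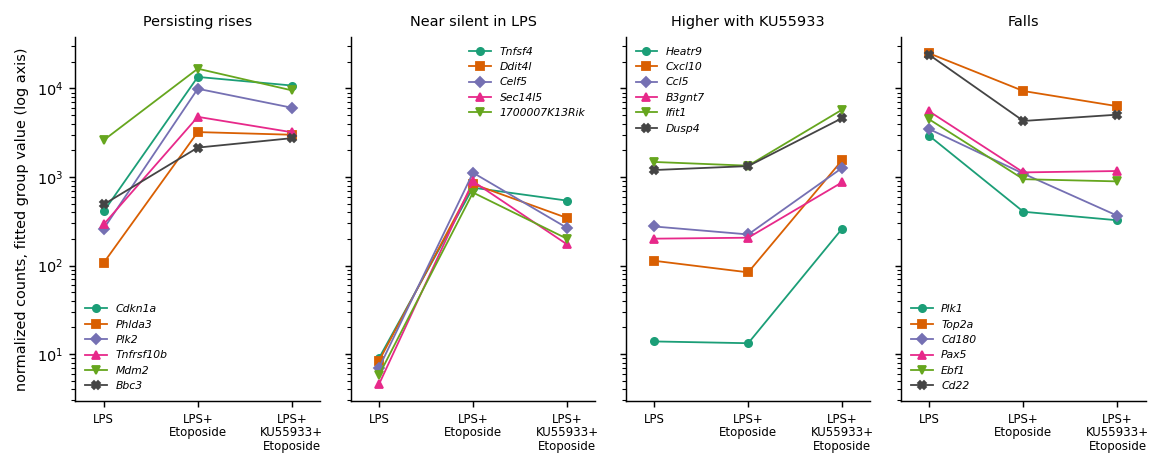
Normalized counts (log axis) of 23 genes in LPS, LPS+Etoposide and LPS+KU55933+Etoposide, 1 fitted value per group, in 4 panels of genes with like patterns. The first panel shows p53 target genes that stayed high with the inhibitor, the second genes under 10 counts in LPS, the third genes that were higher with the inhibitor, and the fourth genes that fell.

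Genes of the damage machinery fell more often than they rose. Of 24 tested damage kinases and mediators, 13 were lower than in LPS and 2 were higher, against 10 and 1 of 19 genes of homologous recombination and the Fanconi pathway and 7 and 2 of 15 of end joining and topoisomerases. These shares compare with 23.5% lower and 26.0% higher over all genes. With library totals as the scaling, 7 of the kinases and mediators were lower and 3 higher, beside 2503 and 5366 of all 15222 genes tested. Atm itself had 8234 counts in LPS and 7829 with the inhibitor, a difference of -0.07 ± 0.09 that did not pass the threshold and had the other sign with library totals, size factors from abundant genes and quantile normalization, where it passed as a rise (0.32). It was lower with etoposide alone, 5479 counts, and differed between the damaged groups by 0.52 (95% interval 0.33 to 0.70). Atr, the kinase that answers single-stranded DNA, rose from 2539 to 3159.8, a call lost with TMM factors (trimmed mean of M values) and with size factors from all genes. Chek2 rose from 859.9 to 1134 and reached 1984 without the inhibitor, while Chek1, the kinase downstream of ATR, fell from 1554 to 1116.

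The falls among the mediators were largest for regulators of mitotic entry. Wee1, the kinase that holds Cdk1 inactive, fell from 712 counts to 418 with etoposide and 217 with the inhibitor. Its difference from LPS was -1.72 ± 0.12 and that between the damaged groups -0.95 (95% interval -1.18 to -0.72). The phosphatase genes that act against Wee1 fell too, Cdc25c by 1.48 and Cdc25b by 1.36 on the log2 scale. Top2a, the proliferation-linked target of etoposide, went from 24930.0 to 9364 and 6303 counts in the same order. Among repair genes, Rad51d, of homologous recombination, was the one of its list that rose, 2.97-fold to 2055 counts (3047 without the inhibitor). Poll and Lig4, a polymerase and the ligase of end joining, rose from 600.1 to 856 and from 339 to 459. The rise of Lig4 did not pass with TMM factors, quantile normalization or size factors from all genes. Brip1, Bard1 and Blm, which act with Brca1 or in strand resolution, fell by 0.94, 0.93 and 0.67 on the log2 scale.

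Mitotic genes fell together. Of 30 tested, 29 were lower than in LPS, against 23.5% of all tested genes, with a median of -1.68 against -1.21 with etoposide alone. The other, Mad2l1, a spindle checkpoint gene, did not pass (2118 and 1729 counts). Plk1, the kinase that drives mitotic entry, at chr7:122159439-122169873, fell from 2913 counts in LPS to 405 with etoposide and 324 with the inhibitor, 8.98-fold lower than in LPS. Ccnb1 (cyclin B1) went from 3865 to 1057 and 823, and Prc1, which bundles spindle microtubules, from 3318 to 1068 and 669. In the direct test, 16 of the 30 were lower with KU55933 than without it and 1 was higher, against 16.5% and 13.2% of all tested genes. Cdc20, the activator of the anaphase-promoting complex, had the largest such difference, -1.29 (95% interval -1.67 to -0.91), with 2959, 2318 and 948 counts. Cenpa, the histone of centromeres, was the exception, with 3235, 1427 and 2558.

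Promoters of mitotic genes were searched for the letters TTTGAA, the cell cycle homology region through which the DREAM complex is known to repress such genes below p53 and p21. The motif was found on either strand in 18 of 25 mitotic genes with a window (72%), in 5 of 26 replication genes (19.2%) and in 14.4% of all tested genes with a window. The CCAAT box, which lies near it in many such promoters, was found in 80% of the mitotic and 43.1% of all. The motifs match letters only and were not tested for binding. The following stretches, with the motif in capitals, belong to mitotic genes with falls over 4-fold, and lie at chr7:122159457-122159478, plus strand, at chr10:69352970-69352991, minus strand, and at chr7:80294438-80294459, plus strand.
Plk1: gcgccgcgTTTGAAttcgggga
Cdk1: ttggctccTTTGAAcgtctacg
Prc1: tggctcggTTTGAAttccgcgg

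Replication genes fell less. Of 33 tested, 26 were lower than in LPS, against 23.5% of all tested genes, and the other 7 did not pass. The median was -0.71 (-0.47 with quantile normalization), and -0.33 with etoposide alone. Pola1, a subunit of the polymerase that starts DNA strands, fell from 2921 to 993 counts (1253 without the inhibitor), Rrm1, the large subunit of ribonucleotide reductase, from 9119 to 3982 (6033 without) and Gins1, of the replicative helicase, from 494 to 221 (332 without). Ccne2 (cyclin E2) had 563 counts in LPS, 841 with etoposide and 425 with the inhibitor. It was above LPS without the inhibitor and below LPS with it, and the 2 damaged groups differed by -0.98 (95% interval -1.25 to -0.72). The fall below LPS was lost with library totals (-0.24 on the log2 scale) and with size factors from abundant genes.

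Immediate early genes encode short-lived regulators made within minutes of a stimulus. With KU55933 and etoposide, 19 of 26 tested were higher than in LPS and 1 was lower, against 26.0% and 23.5% of all tested genes. The median was 1.36. With etoposide alone, 16 were higher and 2 lower, with a median of 1.15. In the direct test, 9 were higher with the inhibitor than without it and 4 were lower, against 13.2% and 16.5% of all tested genes. Fosl2, an AP-1 subunit, rose from 80.6 to 598 with etoposide and 1569.8 with the inhibitor, and the orphan nuclear receptor Nr4a2 from 19.8 to 180.3 and 323. Fos had 56.6, 839 and 901 counts and Jun 944, 3092 and 3789, with no difference past the threshold between the damaged groups for either gene. Egr1, a growth-factor-responsive zinc finger gene, rose with etoposide alone, with 235 counts in LPS, 850.0 with etoposide and 196 with the inhibitor. With KU55933 the difference from LPS, -0.27 ± 0.41, did not pass. The difference between the damaged groups was -2.12 (95% interval -2.92 to -1.31), which passed the threshold. Fosl1 had 23, 338 and 65.4 counts and fell between the damaged groups by 2.37 on the log2 scale. Dusp4, a phosphatase of MAP kinases, went the other way, with 1198, 1328 and 4637 counts and 1.80 (95% interval 1.40 to 2.21) between the damaged groups. Myc fell in both damaged groups, from 3735 to 1578 and 1736.

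Of 22 tested NF-kB regulators and targets, 10 were higher and 2 lower, against 26.0% and 23.5% of all tested genes, with a median of 0.26. The median was 0.42 with library totals and 0.49 with quantile normalization, where 15 were higher and 1 lower. The medians over all tested genes were 0.19 and -0.03 with these scalings. Nfkbia (IkBα) had 7159 counts in LPS and 8819 with the inhibitor and Tnfaip3 (A20) had 5261 and 5951. Both genes encode feedback inhibitors of NF-kB, and their differences of 0.30 ± 0.11 and 0.18 ± 0.15 did not pass. Both passed with quantile normalization, and Nfkbia also with library totals and with size factors from abundant genes. The rises over 2-fold were of Cd80 and Cd86, the ligands of CD28, of the adhesion molecule Icam1 and of Ikbke, a kinase of the IkB kinase family (1219, 5453 and 3182 counts). Cd80 and Icam1 rose with etoposide alone and less with the inhibitor, Cd80 with 303, 1767 and 1041 counts and Icam1 with 1582, 7172 and 4249. Cd86 rose with the inhibitor, with 1419, 1088 and 3294 counts and a 3.03-fold difference between the damaged groups that passed. The subunit genes Rel, Nfkb2, Relb and Rela rose by 0.32 to 0.72 on the log2 scale. Nfkb1, the gene of p105 and p50, fell from 12642 to 6132 (5815 without). Birc3, an inhibitor of apoptosis, fell from 5484 to 4480.1, a difference of -0.29 ± 0.07 that did not pass with library totals and was 0.02 after quantile normalization.

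Both chemokine genes Cxcl10 and Ccl5 were high with the inhibitor and at or below their LPS level without it. Cxcl10, a ligand of Cxcr3 at chr5:92346638-92348889, had 113 counts in LPS, 83.7 with etoposide alone and 1555 when the inhibitor was added, a difference from LPS of 3.78 ± 0.26 and 13.8-fold. Ccl5 had 276, 224 and 1271 counts in the same order, a 4.6-fold rise. The damaged groups differed by 4.22 (95% interval 3.70 to 4.73) and 2.50 (95% interval 2.19 to 2.81). Il6 was below LPS with etoposide and above it with the inhibitor (300.4, 208 and 496). Tnf, Ltb and Lta, of the TNF family, fell in both damaged groups, Tnf from 246 to 113 and 86.9. Ifnb1, the gene of interferon beta, was below the filter, with 1.15, 2.02 and 5.8 counts. In all, 5 of 14 tested genes of this list were higher than in LPS and 4 lower, shares near the 26.0% and 23.5% of all tested genes.

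Interferon-stimulated genes, which are active in LPS-treated cells, were mostly higher with the inhibitor than with etoposide alone. Of 30 tested genes, 9 were higher than in LPS and 4 lower with KU55933 and etoposide, with a median of 0.08, against 2 higher, 15 lower and a median of -0.46 with etoposide alone. The 9 of 30 are near the 26.0% of all tested genes that were higher. With library totals 13 were higher and 1 lower, beside 5366 and 2503 of all 15222 genes tested. With quantile normalization 11 were higher and 1 lower, beside 3775 and 3496 of 15381. The median of the list was 0.24 in both, against 0.19 and -0.03 over all tested genes. In the direct test, 18 were higher with the inhibitor and 1 was lower, where 13.2% of all tested genes were higher. Ifit1, which binds foreign RNA, at chr19:34640871-34650009, had 1479, 1342 and 5781 counts, above LPS with the inhibitor (1.97 ± 0.18) and not without it (-0.14 ± 0.18). Rsad2 (viperin), an antiviral enzyme, had 848, 635 and 2427, below LPS without the inhibitor and above it with the inhibitor. Irf7, the transcription factor of the second wave of interferon, had 2866, 2854 and 5406. Isg15, a ubiquitin-like protein, had 2623, 2089 and 3712, and its difference from LPS (0.50 ± 0.21) did not pass. It passed with library totals and with quantile normalization.

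Ifit3 and Ifit2, of the same family as Ifit1, had 633, 133 and 535 and 1189, 422 and 1451 counts, and their differences from LPS with the inhibitor did not pass. Oas3, a sensor of double-stranded RNA, and Trim30a had 2585 and 15687 counts in LPS and 1433 and 9952 with the inhibitor, and were lower than LPS in both damaged groups. The call of Trim30a was lost with library totals and quantile normalization. Promoters of the list held the letters GAAANNGAAA, the core that interferon regulatory factors and the ISGF3 complex bind, in 12 of 21 genes with a window (57.1%), against 3.82% of all tested genes with a window. Cxcl10 and Rsad2, which rose, and Oas3, which fell, all held it. Stretches with the motif in capitals are shown for genes that rose and for one that fell, at chr19:34640796-34640821, minus strand, at chr12:26456555-26456580, plus strand, at chr5:92349085-92349110, minus strand, and at chr5:120777717-120777742, minus strand.
Ifit1: agcagtgaGAAACTGAAActgagact
Rsad2: tgttttctGAAAATGAAAgttggacc
Cxcl10: acgctttgGAAAGTGAAActtacctc
Oas3: agggaggaGAAAACGAAAgtgaaggg

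**Figure D3:**
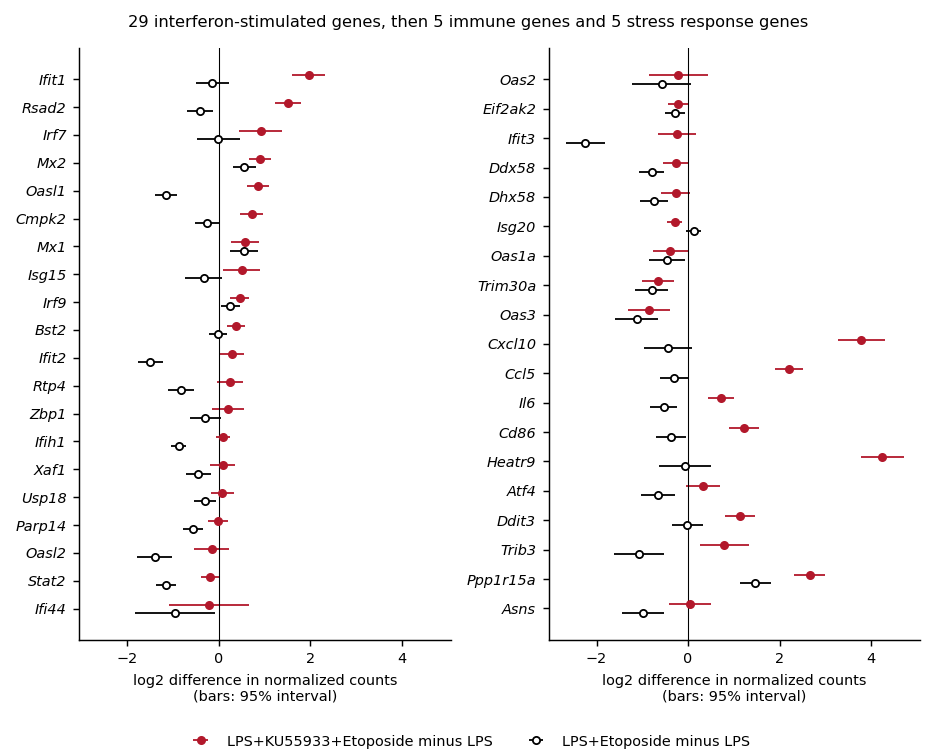
Log2 differences from LPS (horizontal axis, bars are 95% intervals) with KU55933 and etoposide (filled) and with etoposide alone (open), for 29 tested interferon-stimulated genes in order and then Cxcl10, Ccl5, Il6, Cd86 and Heatr9 and the stress response genes Atf4, Ddit3, Trib3, Ppp1r15a and Asns. For Ifit1, Rsad2, Oasl1, Cxcl10, Ccl5, Heatr9 and Ddit3 the filled point lies right of 0 and the open point at or left of 0.

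Genes of the integrated and endoplasmic reticulum stress responses were mostly higher with the inhibitor than without it, while their counts against LPS lay near those of all genes. Atf4, the factor that is translated when eIF2α is phosphorylated, is among them. Of 17 tested genes of the integrated and endoplasmic reticulum stress responses, 4 were higher and 5 lower than in LPS, against 26.0% and 23.5% of all tested genes. Between the damaged groups 11 were higher and 1 lower with the inhibitor, against 13.2% and 16.5%. With library totals 5 were higher and 3 lower than in LPS, beside 5366 and 2503 of all 15222 genes tested. With quantile normalization 6 were higher and 2 lower, beside 3775 and 3496 of 15381. The median difference from LPS, 0.04, had the other sign with TMM factors, so that no direction against LPS is given. Ddit3 (Chop) had 718, 709 and 1583 counts and Trib3, a pseudokinase, 773, 366 and 1338. Ppp1r15a (Gadd34), which directs the phosphatase that restores eIF2α, rose with etoposide and further with the inhibitor, with 1269, 3504 and 7978 counts. Atf4 itself had 8916, 5614 and 11227, a difference of 1.00 (95% interval 0.63 to 1.37) between the damaged groups and of 0.33 ± 0.19 from LPS, which did not pass. The chaperone genes Hsp90b1 and Hspa5 and the factor gene Xbp1 stayed below LPS, with log2 differences of -0.58, -0.31 and -0.47, the last of which did not pass with quantile normalization. The promoter of Ppp1r15a held a full CRE, TGACGTCA, the palindrome that the CREB and ATF families bind, found in 3.71% of all tested genes with a window. It is shown in capitals as the site of the stress gene that rose most, at chr7:45526265-45526288, minus strand.
Ppp1r15a: ctctccggTGACGTCAgcacagcg

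Among Bcl2 family genes outside the p53 lists, Bcl2l11 (Bim), a BH3-only activator, rose from 5051 to 10198 counts (9435 without the inhibitor) and Bad from 317 to 405 (374 without). Bak1, an effector, fell from 1479.8 to 948. In this pro-death list 3 of 5 tested genes were higher and 1 lower than in LPS, against 26.0% and 23.5% of all tested genes. With TMM factors, quantile normalization or size factors from all genes, 2 were higher. Of the pro-survival genes, 3 of 6 were lower than in LPS, against 23.5% of all tested genes, and the others did not pass. Bcl2 fell 4.13-fold, from 5903 to 1430.1 (1759 without), and Mcl1 from 14976 to 9714 (12588 without). Bcl2a1b and Bcl2a1d, near-identical copies between which reads can be split, did not pass.

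Genes of B cell identity were lower in both damaged groups. Of 15 tested, 10 were lower than in LPS and 1 was higher, against 23.5% and 26.0% of all tested genes, with a median of -1.22. Over genes with a mean of at least 4350 counts in the 3 groups, 47.4% were lower. With etoposide alone 13 of the 15 were lower, with a median of -1.01. Ebf1, Pax5 and Bach2, transcription factors that set and hold the B cell programme, fell from 4472 to 892, from 5504 to 1168 and from 4854 to 1159.9 counts. Their levels without the inhibitor were 944, 1127 and 1228, and the differences between the damaged groups were -0.08 (95% interval -0.42 to 0.25), 0.05 (95% interval -0.21 to 0.31) and -0.08 (95% interval -0.46 to 0.29). Cd22, an inhibitory coreceptor, fell from 23942 to 5064 (4297 without). Spib, an Ets factor, rose from 12655 to 18385. The largest fall of all genes with at least 100 counts in both groups was of Cd180, a Toll-like receptor homologue of B cells that modulates the response to LPS, with 3474, 1091 and 365 counts and a difference from LPS of -3.25 ± 0.08. Other large falls were of Serpinb1a, a protease inhibitor (-3.12 ± 0.16), of the DNA helicase gene Pif1 (-3.08 ± 0.19), and of the B cell genes Bcl11a (-2.74 ± 0.18), Bank1 (-2.73 ± 0.13) and Mef2c (-2.37 ± 0.14). Srpk3, Snn and Fam64a completed the 10 with Plk1, at -2.50, -2.48 and -2.42.

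Of 8 tested plasmablast and switching genes, 5 were lower and 1 higher, against 23.5% and 26.0% of all tested genes, with a median of -0.69 (-0.40 with quantile normalization, where 4 were lower and 2 higher). Sdc1 (CD138), the surface marker of plasma cells, rose from 137 to 1963 with etoposide and to 638 with the inhibitor. Prdm1 (Blimp1), the factor that drives plasma cell differentiation, fell from 2345 to 1724 and 1223, and Irf4, which acts beside it, had 10912, 11816 and 6046, with -0.97 (95% interval -1.15 to -0.79) between the damaged groups. The coactivator gene Pou2af1 fell from 25699 to 8971 (9257 without).

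**Figure D4:**
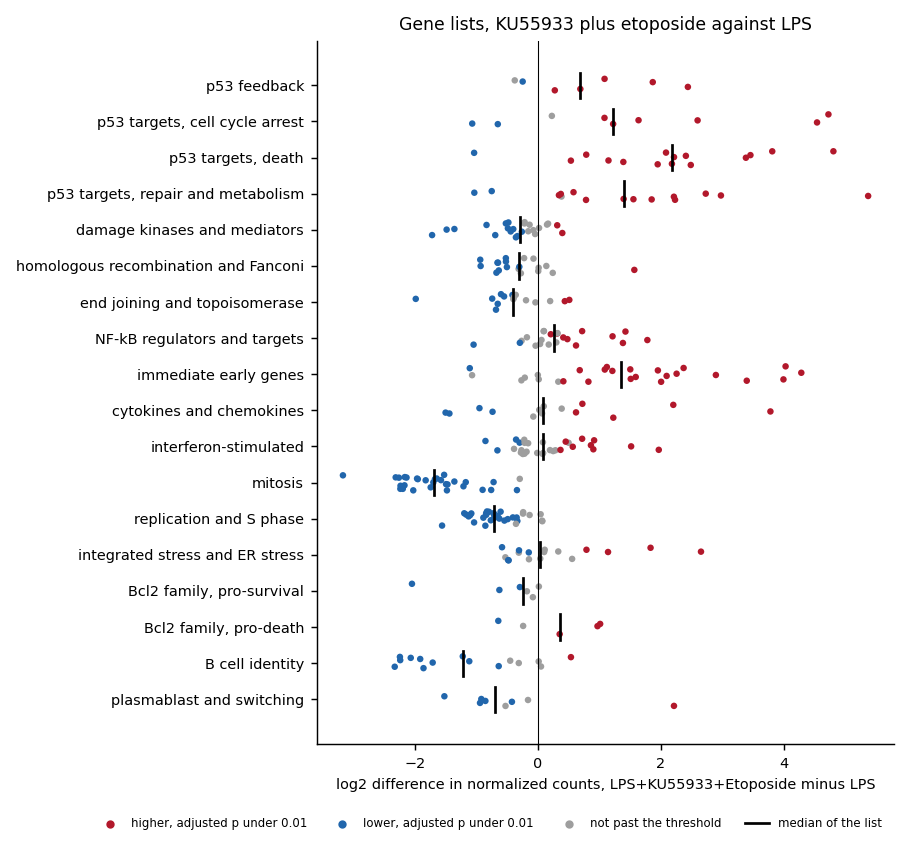
Log2 difference between LPS+KU55933+Etoposide and LPS (horizontal axis) of each tested gene of 18 lists, coloured by the call at an adjusted p of 0.01, with the median of each list as a bar. The p53 target and immediate early lists lie right of 0, and mitosis, replication and B cell identity lie left of it.

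Changes that appeared with the inhibitor were counted over all genes with at least 100 counts in one group. A rise past the threshold both from LPS and from LPS+Etoposide, with etoposide alone within 0.2 (log2) of LPS, was found for 387 genes, and such a fall for 269. Heatr9, at chr11:83511736-83522175, rose most, with 13.9, 13.2 and 262 counts. The next were B3gnt7, an enzyme that extends keratan sulphate, with 201, 206 and 873, and Mt1, a metal-binding metallothionein, with 117, 133 and 478, followed by Ifit1 and Dusp4. Heatr9 lies beside the chemokine gene Ccl5 at chr11:83525778-83530518. The falls of this kind were largest for Pld4, an exonuclease of endolysosomes that degrades single-stranded nucleic acids, with 2629.5, 2884 and 841 counts, then Tmed6, Tns1, Spred2, an inhibitor of Ras signalling, and Gm29666, with log2 differences of -1.40 to -1.06. A change past the threshold against LPS in opposite directions with and without the inhibitor was found for 87 genes that were higher than LPS with the inhibitor and 26 that were lower. Rsad2, Hist1h1c, a linker histone gene (189, 92.3 and 508 counts), and Tbc1d30 (55.6, 30.2 and 208) were the largest of these. Ada, adenosine deaminase, was higher than LPS without the inhibitor and lower with it (404, 818 and 225), as were Hpn (53.8, 96.5 and 25.9) and Tnfrsf8, the receptor CD30 (61.2, 89 and 33.6). How many genes could meet these rules was not counted, so the counts give no share. Over all tested genes 26.0% were higher and 23.5% lower than LPS with the inhibitor. Between the damaged groups 13.2% were higher and 16.5% lower.

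Long genes were lower more often than short ones. Over genes with a mean of at least 100 counts in the 3 groups, the median log2 difference from LPS was 0.07 in the 1084 genes of the fourth of 10 bins of genomic span (10.6 to 15.3 kb) and -0.45 in the last bin, whose median span was 148 kb. In that bin 54.4% of genes were called lower and 9.88% higher, against 21.2% and 33.2% in the fourth. The medians with etoposide alone were -0.01 and -0.39 in the fourth and the last bin. In the first bin, with spans up to 2.99 kb, the median with the inhibitor was -0.007, and 14.6% of genes were called higher and 17.2% lower. The last bins by number of exons and by exonic length had medians of -0.27 and -0.21. Ebf1, Bach2, Bank1, Pax5, Bcl2 and Mef2c, which fell, span 391, 347, 273, 186, 176 and 163 kb, while Cd22 and Plk1 span 14.9 and 10.4 kb. The medians fell with abundance as well, from 0.10 in the bin of the lowest mean count to -0.27 in the highest. The part of gene span and abundance in these falls was not tested. By GC content of the longest transcript, the median difference went from -0.13 in the lowest bin to 0.18 in the highest, against -0.12 and 0.02 with etoposide alone.

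**Figure D5:**
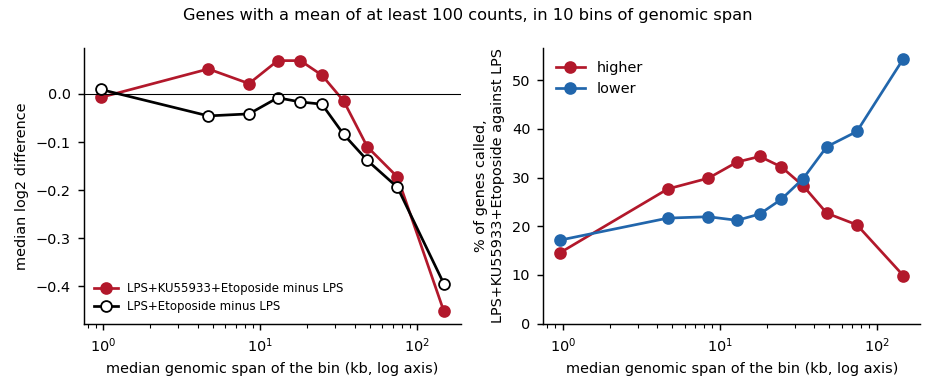
Genes with a mean of at least 100 counts in 10 bins of genomic span (horizontal axis, median span of the bin in kb, log axis), with the median log2 difference from LPS in both damaged groups on the left and the percentage of genes called higher or lower with KU55933 and etoposide on the right. The medians fall below -0.1 from the eighth bin on, and calls of lower genes reach 54.4% in the bin of the longest genes.

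Many markers of other cell types were below the filter. Of 8 T cell genes, Lck passed the filter, at 421 counts in LPS and 269.8 with the inhibitor, and Cd3e, Cd3d and Cd3g had under 4 counts in every group. None of 6 neutrophil genes passed, and of the NK cell list Prf1 did, at 21.8 and 22.6 counts. Of 11 macrophage and monocyte genes, 7 were tested, and Cd68 (104 to 176) and Cd14 (5.14 to 40.7) were higher with the inhibitor while Itgam (219 to 115) was lower. Their summed level was 11627 in LPS, 10250.0 in LPS+Etoposide and 9443 in LPS+KU55933+Etoposide, most of it from Ctss and Mpeg1, which B cells express as well. Of 6 dendritic cell genes, 4 were tested and 2 of these were higher with the inhibitor than in LPS. Zbtb46 rose from 102 to 408 (182 without the inhibitor) and Bst2, also an interferon-stimulated gene, from 2511 to 3243. Flt3 had 2782 counts in LPS, 1660 with etoposide alone and 2948 with the inhibitor, and Ccr9 had 104, 89.1 and 102. Neither passed against LPS with the inhibitor. Itgax and Siglech had under 6 counts in every group. The beta-globin genes Hbb-bt and Hbb-bs, near-identical copies, fell from 146 to 69.6 and from 60.4 to 28.6. The part of other cells in the chemokine and interferon results was not tested.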

How the data were processed

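mRNAseq libraries were made from 4 replicates in each of 3 groups. According to the processing notes and methods, the authors trimmed reads with Trim Galore, aligned them to the mouse genome GRCm38 with TopHat2 2.0.12, counted reads per gene with HTSeq and fitted counts with DESeq2 1.6.3. The deposited table of normalized counts was treated as signal: within a group its columns were exact multiples of each other (largest deviation 1.4e-14 on the log2 scale), so that the authors' values are fitted group means scaled to each library and carry no spread between replicates. The deposited tables of comparisons hold fold changes, statistics and p-values on a log2 scale, which were not used. Their standard errors were used as the only replicate error, because no other deposited value carries one. These come from a fit to the libraries of every group that shrinks differences, and may be too small for genes with low counts.

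Columns were divided by median-of-ratios size factors, computed over the libraries of every group. They used 16297 genes of at least 3 in every column, a limit chosen after the data were seen. Genes of at least 10 in at least 4 of the 8 columns were tested (15176 of 29486, of which 5 had no standard error). The log2 ratio of the group values was divided by the standard error, a two-sided Wald test with Benjamini-Hochberg adjustment over all tested genes and a threshold of 0.01, without a pseudocount. The methods call the replicates biological, and the labels do not say whether they are separate animals. The p-values rest on the deposited standard errors, which come from the fit to the libraries of every group, and not on a spread measured between replicates here. The test was run on simulated differences drawn with the same standard errors, so it cannot check whether those errors are of the right size. Of 200 genes changed by 1.5-fold, 104 were recovered, and 166 of 200 at 2-fold. Python 3.11.15, numpy 2.4.6, pandas 2.3.3, scipy 1.17.1 and matplotlib 3.10.9 were used.

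The comparison and the 18 gene lists were chosen with earlier results of these data known. Named genes were the 10 largest rises and falls with at least 100 counts in both groups, the 5 largest rises from under 10 counts to at least 100, the 5 largest each way that appeared with the inhibitor, the 3 largest each way with opposite directions, up to 3 rises and 3 falls of each list with at least 50 counts in a group, and fixed genes of the damage, activation and cell cycle responses. Other list members were named after their values were seen. Gene positions, spans and GC content came from GENCODE M21 on GRCm38, matched by Ensembl identifier, and promoter windows from RefSeq. Alternatives were other scalings, filters, thresholds, standard errors and a pseudocount of 5. A few list members enter the counts and medians but are not reported here.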

Additional observations from a re-analysis of the deposited data

How the results depend on the processing

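Of 60 counts of changed genes under the alternatives, 55 stayed within 1.5 times the reported count. The others were under a minimum of 2-fold, with 2585 genes changed against LPS (1673 higher and 912 lower), 3155 changed with etoposide alone and 973 changed between the damaged groups. The counts higher and lower were 3372 and 4247 with TMM factors and 4633 and 2980 with size factors from genes of at least 100 in every column. For named genes and lists, 1561 values kept their direction and call or moved within their error, 60 lost the call, 8 gained it, 5 changed sign and 28, all medians of lists, kept their sign and moved by more than their error. The 5 changes of sign were of genes, Trp53 (0.0598) and Birc3 (0.025) with quantile normalization, and Atm with quantile normalization (0.32), library totals (0.089) and size factors from abundant genes (0.0095). Of these, Atm with quantile normalization passed the threshold and the other 4 did not. Medians of lists that crossed 0 are not among the 5. Examples are the stress responses (0.04, and -0.035 with TMM factors and -0.031 with size factors from all genes) and the macrophage and monocyte markers (-0.24, and 0.065 with quantile normalization). The cause of these changes was not tested. No paired analysis was possible because the columns of a group hold one fitted value scaled to each library, so that no value of a single replicate exists. Leaving out replicates was not run for the same reason. The standard errors limit the genes with low counts most, and a fold change of a gene under 10 counts in LPS depends on a few reads.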
